A study of Populus tomentosa with 9 samples.

Results

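UDP-glycosyltransferases are the subject of this account: the 34 genes, of 41624 in the expression table, whose description in any of 6 deposited comparison tables contained UDP-glucuronosyl/UDP-glucosyltransferase or UDP-glycosyltransferase. Expression was read by RNA sequencing in suspension cells of the poplar Populus tomentosa, a culture of dispersed cells grown in liquid medium. An antisense line, an overexpression line and the wild type were each sampled after H2O2, after ASA and in the control condition, which gave 9 libraries with 1 library per condition and no replicates. All cells were taken 5 days after subculturing and kept in the dark; treated cells had received 10 mM H2O2 or 1 mM ASA for 3 h, and ASA is not spelled out in the labels. Neither the gene targeted by the antisense and overexpression constructs nor their promoter is named there, so the targeted gene could not be checked, and each transgenic genotype is represented by a single line. The labels call the source suspension cells of poplar, although the RNA extraction text mentions stems of Arabidopsis; the POPTR gene identifiers are those of poplar.

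UDP-glycosyltransferases move a sugar, in plants usually glucose, from a UDP-sugar to a small acceptor such as a flavonoid, a phenolic acid, a hormone or a foreign compound. The attached sugar makes the acceptor more soluble, often changes its activity and allows its storage in the vacuole. Plant genomes hold large families of these genes, many in tandem clusters, and several members in Arabidopsis are known to respond to oxidative stress or to salicylate. The acceptor and the individual role of each of the 34 poplar genes are not annotated in the files, so the genes are named by identifier. They carried the description UDP-glucuronosyl/UDP-glucosyltransferase, and POPTR_0002s06770 also carried a second glycosyl transferase family domain that is known from sterol glucosyltransferases.

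Read totals recovered from the expression values ranged from 17102469 to 19629543 per library. FPKM, the unit used below, is the number of fragments scaled to the length of the gene and to the mapped fragments of the library, so that levels of different genes can be compared. The 2 treated antisense libraries differed from each other in the opposite direction to the same treatments in the other lines. Over the 23350 genes that averaged 1 FPKM or more, the difference between H2O2 and ASA on the log2(FPKM + 1) scale correlated at r = -0.838 between the antisense line and the wild type, and at r = 0.622 between the overexpression line and the wild type. In the antisense line 82.6% of the genes had the opposite sign to the wild type. These correlations run across genes of the same few libraries and describe those libraries. The libraries are therefore called the library labelled antisense H2O2 and the library labelled antisense ASA, and medians and counts from the fit, with values of several genes, are also given without them. An exchange of these 2 libraries and an opposite response of the line cannot be told apart here.

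Descriptions exist solely for genes that the authors placed in at least 1 of their tables, each of which set a transgenic line against the wild type in the same treatment. The deposited tables hold genes with a log2 fold of at least 1 in size and a q-value of up to 0.00498. Differences between lines therefore chose the members and are given as a description without a test. The authors' deposited tables held 57 entries for the 34 genes: 19 genes were listed once, 8 were listed 2 times, 6 were listed 3 times, and POPTR_0001s30980 was listed 4 times. The overexpression line accounted for 20 genes and the antisense line for 23, with 9 genes listed for both. The weakest listed log2 folds in the authors' deposited tables were 1.02 for POPTR_0001s30980 in the antisense control, -1.02 for POPTR_0015s08330 in the library labelled antisense ASA and 1.04 for POPTR_0007s00740 in the antisense control. On the log2(FPKM + 1) scale, which is not that of the authors' folds, the unlisted differences nearest below 1 in size were -0.98 for POPTR_0017s00850 in overexpression cells with ASA, 0.95 for POPTR_0007s00740 in the overexpression control and -0.91 for POPTR_0016s01820 in the antisense control. Larger differences were also left unlisted, up to 1.95 for POPTR_0001s32000 in the overexpression control and 1.87 for POPTR_0006s05450 in overexpression cells with H2O2.

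Most listings were on the lower side of a treated transgenic library. In the authors' deposited table for overexpression against wild type with H2O2, 1 of the 34 genes was listed higher, beside 1.02% of all genes, and 14 were listed lower, beside 1.46% of all genes. With ASA the authors' deposited table held 4 of the 34 as higher in overexpression cells, beside 1.12% of all genes, and 8 as lower, beside 1.82%; all 8 were among the 14 listed lower with H2O2. In the control condition the authors' deposited table for the overexpression line held 2 as higher, beside 0.728%, and 0 as lower, beside 1.33%. For the library labelled antisense H2O2 the authors' deposited table held 5 as higher, beside 1.05%, and 1 as lower, beside 0.541%. For the library labelled antisense ASA it held 1 as higher, beside 0.735%, and 18 as lower, beside 2.61%. For the antisense control the authors' deposited table held 3 as higher, beside 0.171%, and 0 as lower, beside 0.425%. These percentages are printed for orientation only, since the same tables supplied the descriptions.

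**Figure D1:**
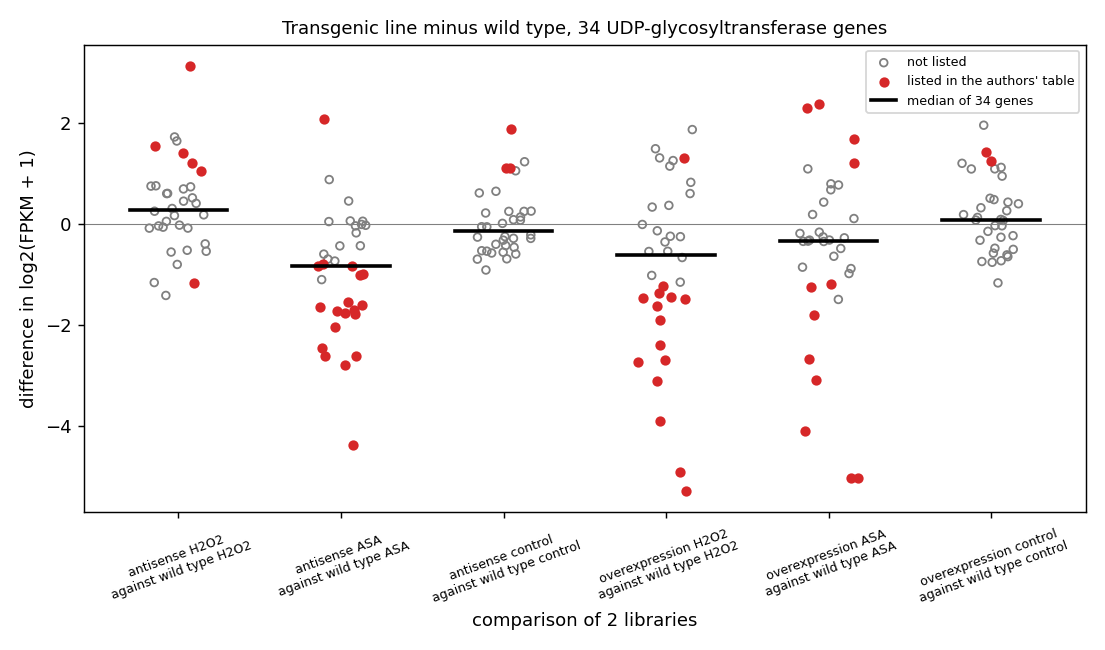
Difference in log2(FPKM + 1) between a transgenic line and the wild type for the 34 UDP-glycosyltransferase genes (points) in each of 6 comparisons of 2 libraries; filled points are genes in the authors' list for that comparison and bars are medians over the 34 genes. The listed genes lie mostly below 0 in the library labelled antisense ASA and in both treated overexpression libraries, whereas the few listed in the 2 control comparisons lie above 0.

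All 34 genes were expressed well enough to be tested, with means over the 9 libraries between 3.21 and 234 FPKM, and 28 of them reached 1 FPKM in all 9 libraries. Together they held 825 FPKM in overexpression cells with H2O2, 1872 with ASA and 2460 in the overexpression control. In the antisense line the sum was 2461 FPKM in the library labelled H2O2, 1456 in that labelled ASA and 2314 in the control. In wild-type cells it was 1649 FPKM with H2O2, 2611 with ASA and 2164 in the control. The H2O2-treated overexpression cells thus had the lowest sum of the 9 libraries, equal to 0.134% of their reads, against 0.275% in wild-type cells with H2O2. The authors had listed 14 of the 34 genes as lower in that library and 18 in the library labelled antisense ASA. Such listings chose the members, so low sums there describe chosen genes. In bulk samples such as these, fewer cells of a type and less RNA per cell cannot be told apart.

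A few genes made up most of the family's transcripts. The 8 with the highest mean level per length were POPTR_0001s31120 at 234 FPKM, POPTR_0009s10180 at 219, POPTR_0001s31040 at 195, POPTR_0001s30980 at 155, POPTR_0016s01880 at 129.7, POPTR_0014s14300 at 126, POPTR_0015s08330 at 99.4 and POPTR_0006s00890 at 80.5. Neighbours in this order overlapped widely across the libraries. POPTR_0009s10180 led in all 3 wild-type libraries, with 172 FPKM with H2O2, 332 with ASA and 370.2 in the control. POPTR_0001s31120 led in both treated overexpression libraries, with 82.9 FPKM with H2O2 and 276 with ASA, while POPTR_0001s30980 led in the overexpression control with 289 FPKM. POPTR_0016s01880 stayed within the narrowest band of these 8 outside the overexpression line, with 141 FPKM in the library labelled H2O2, 143 in that labelled ASA and 133 in the control in the antisense line and 149 FPKM with H2O2, 144 with ASA and 132 in the control in the wild type. In the overexpression line it had 63.2 FPKM with H2O2, 113 with ASA and 149.8 in the control.

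**Figure D2:**
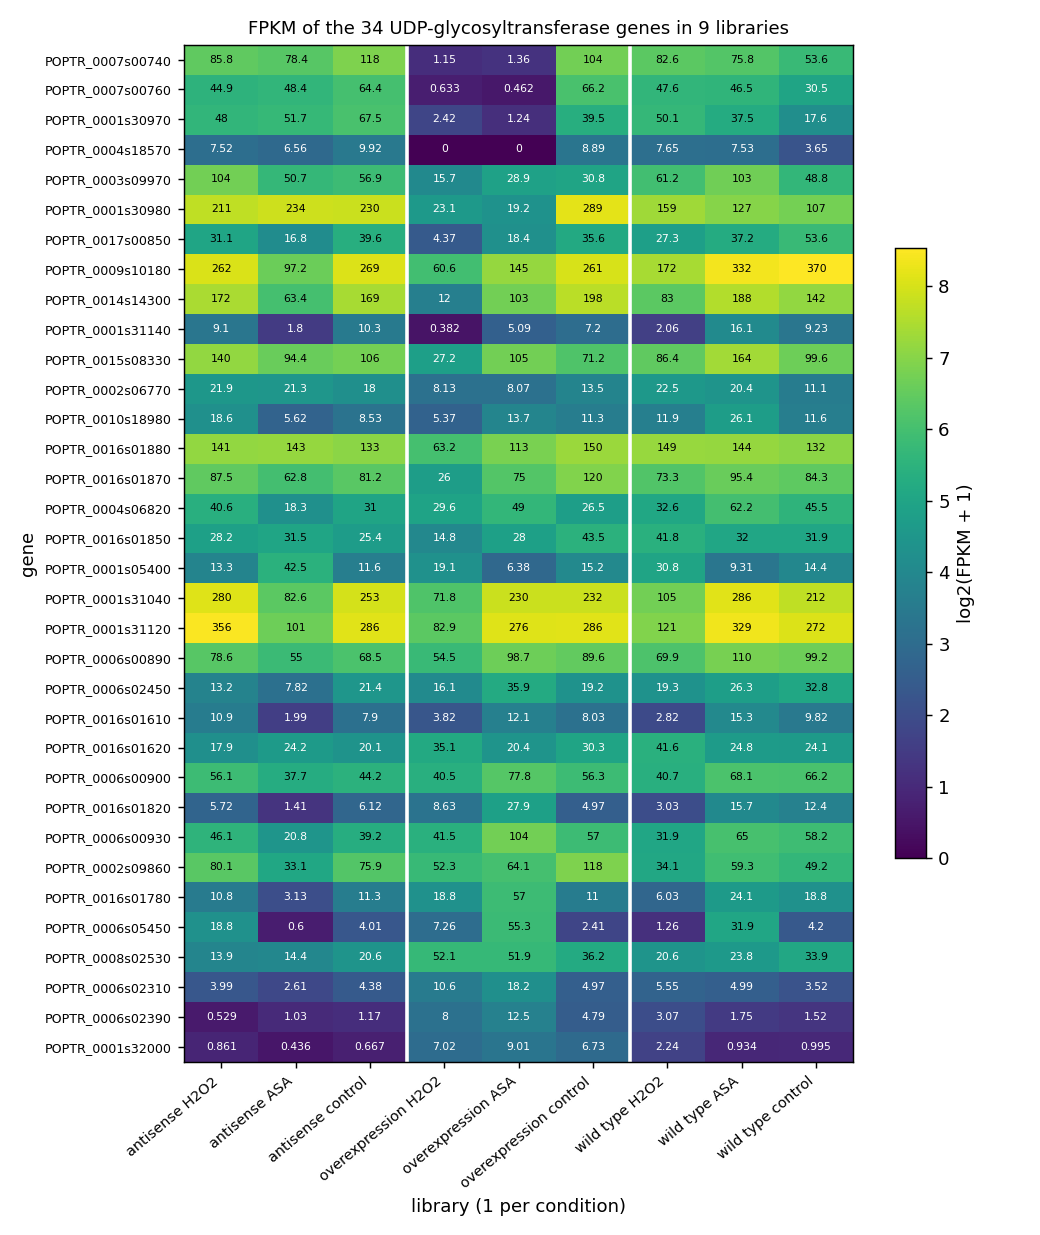
FPKM of the 34 UDP-glycosyltransferase genes (rows, ordered by fitted overexpression minus wild-type difference) in the 9 libraries (columns, 1 per condition); colour is log2(FPKM + 1) and each cell prints the FPKM. The upper rows are darkest in the 2 treated overexpression columns, where POPTR_0004s18570 is at 0, and the lowest rows are brightest in the overexpression columns.

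The most extreme pattern in the overexpression line was a drop of 12.5-fold or more in 5 genes after either treatment, although their levels in the untreated overexpression cells were above those in the untreated wild type. POPTR_0007s00740 had 1.15 FPKM with H2O2, 1.36 with ASA and 104 in the control in the overexpression line, against 82.6 FPKM with H2O2, 75.8 with ASA and 53.6 in the control in the wild type. Both treated overexpression libraries lay far below the other 7. Its level was lower than in the overexpression control by 90.9-fold (95% interval 67.4 to 126) with H2O2 and 76.5-fold (95% interval 57.8 to 104) with ASA, where the exact interval covers the counting of reads only. POPTR_0007s00760, whose identifier lies close by in number, had 0.633 FPKM with H2O2, 0.462 with ASA and 66.2 in the control in overexpression cells, against 47.6 FPKM with H2O2, 46.5 with ASA and 30.5 in the control in the wild type. Its drop from the overexpression control was 104-fold (95% interval 56.6 to 219) with H2O2 and 143-fold (95% interval 69.2 to 357) with ASA. The expression table held 10 and 7 reads of it in these 2 libraries, whereas the authors' deposited table gave 0 as its scaled value in both.

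POPTR_0004s18570 had no read in either treated overexpression library, against 290 reads in the overexpression control. Its levels were 0 FPKM with H2O2, 0 with ASA and 8.89 in the control in the overexpression line and 7.65 FPKM with H2O2, 7.53 with ASA and 3.65 in the control in the wild type. Set at the limit of 3 reads per library that a count of 0 allows, the gene was at least 95.4-fold lower with H2O2 and at least 91.5-fold lower with ASA than in the overexpression control. The exact 95% interval for the counting of reads reaches down to 77.1-fold with H2O2 and 73.9-fold with ASA. POPTR_0001s30970 had 2.42 FPKM with H2O2, 1.24 with ASA and 39.5 in the control in the overexpression line, against 50.1 FPKM with H2O2, 37.5 with ASA and 17.6 in the control in the wild type. The 2 lines moved in opposite directions: the treated overexpression libraries were lower than their control by 16.3-fold (95% interval 12.7 to 21.3) with H2O2 and 31.8-fold (95% interval 22.4 to 46.7) with ASA, while the treated wild-type libraries were higher than theirs, 2.84-fold (95% interval 2.56 to 3.17) and 2.13-fold (95% interval 1.90 to 2.38).

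POPTR_0001s30980 was the most abundant of the 5 and the gene listed most often. It had 23.1 FPKM with H2O2, 19.2 with ASA and 289 in the control in the overexpression line, 211 FPKM in the library labelled H2O2, 234 in that labelled ASA and 230.2 in the control in the antisense line and 159 FPKM with H2O2, 127 with ASA and 107 in the control in the wild type. In the control condition it was thus higher in both transgenic lines than in the wild type, 2.71-fold (95% interval 2.60 to 2.82) in the overexpression line and 2.16-fold (95% interval 2.07 to 2.25) in the antisense line. With treatment it kept 23.1 FPKM in overexpression cells with H2O2, so it was reduced but not lost. In the antisense line the 5 genes were near or above their wild-type levels: for POPTR_0007s00740 the values were 85.8 FPKM in the library labelled H2O2, 78.4 in that labelled ASA and 118 in the control, and for POPTR_0001s30970 they were 48.0 FPKM in the library labelled H2O2, 51.7 in that labelled ASA and 67.5 in the control. None of the 5 dropped below 1 FPKM in an antisense or wild-type library.

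**Figure D3:**
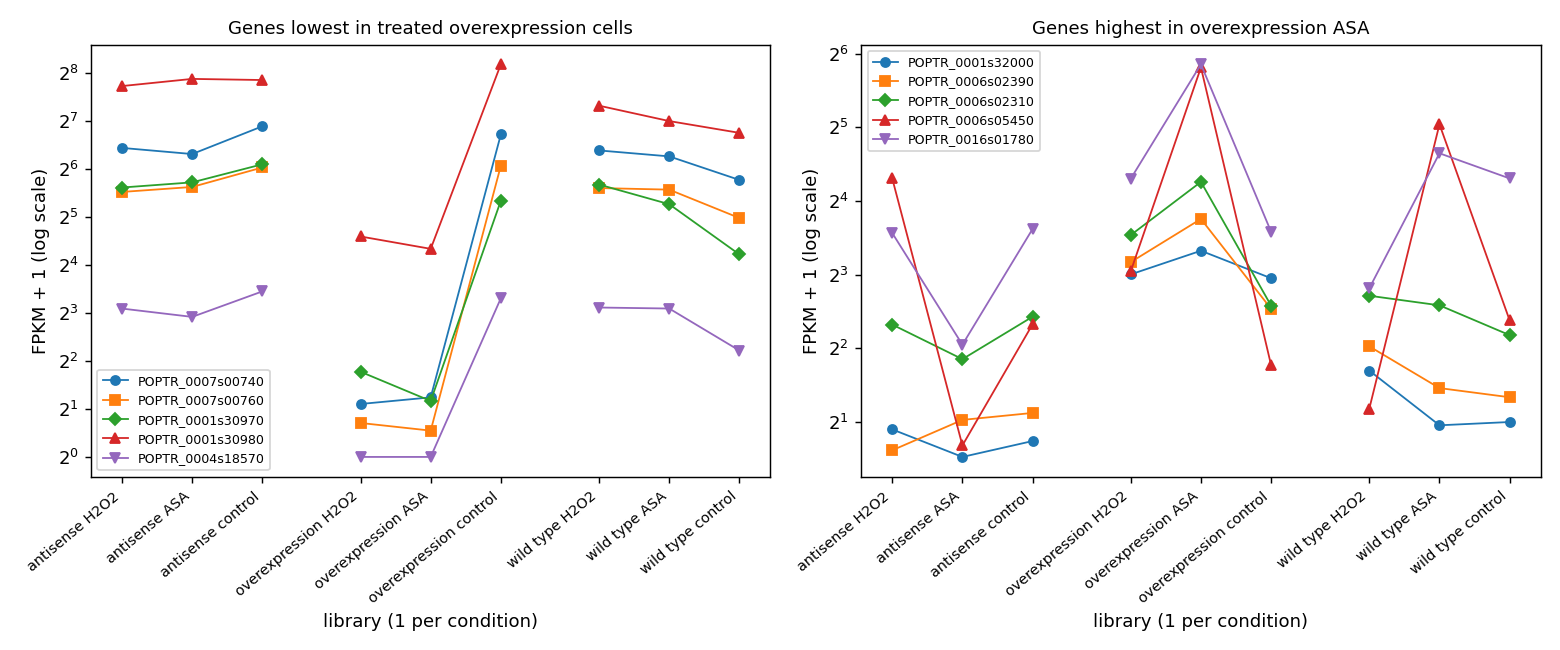
FPKM + 1 on a log scale in the 9 libraries (1 per condition, joined within a line) for 5 genes with their lowest levels in treated overexpression cells (left) and 5 genes with their highest level in overexpression cells with ASA (right). On the left, each gene's 2 treated overexpression points sit far below its other 7; on the right, POPTR_0001s32000 and POPTR_0006s02390 are above both other lines in all 3 overexpression libraries, whereas POPTR_0006s05450 and POPTR_0016s01780 also peak with ASA in the wild type.

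A second set of genes was low in overexpression cells with H2O2 and less so with ASA. POPTR_0014s14300 had 12 FPKM with H2O2, 103 with ASA and 198 in the control in the overexpression line and 83.0 FPKM with H2O2, 188 with ASA and 142 in the control in the wild type, a level 16.5-fold (95% interval 14.8 to 18.6) lower with H2O2 than in the overexpression control. POPTR_0017s00850 had 4.37 FPKM with H2O2, 18.4 with ASA and 35.6 in the control in overexpression cells, against 27.3 FPKM with H2O2, 37.2 with ASA and 53.6 in the control in the wild type. POPTR_0001s31140 had 9 reads in overexpression cells with H2O2, with 0.382 FPKM with H2O2, 5.09 with ASA and 7.20 in the control, against 2.06 FPKM with H2O2, 16.1 with ASA and 9.23 in the control in the wild type. The abundant POPTR_0009s10180 had 60.6 FPKM with H2O2, 145 with ASA and 261 in the control in overexpression cells, and POPTR_0015s08330 had 27.2 FPKM with H2O2, 105 with ASA and 71.2 in the control there against 86.4 FPKM with H2O2, 164 with ASA and 99.6 in the control in the wild type. For all 5 of these genes the wild type with H2O2 was also below the wild type control, at a smaller fold than in the overexpression line.

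Of the other genes on the lower side, POPTR_0003s09970 was lower in all 3 overexpression libraries, with 15.7 FPKM with H2O2, 28.9 with ASA and 30.8 in the control, against 61.2 FPKM with H2O2, 103 with ASA and 48.8 in the control in the wild type, and the 2 ranges did not overlap. POPTR_0002s06770 was lower in treated overexpression cells only, with 8.13 FPKM with H2O2, 8.07 with ASA and 13.5 in the control in overexpression cells against 22.5 FPKM with H2O2, 20.4 with ASA and 11.1 in the control in the wild type. Over the 3 treatments together, the fitted differences between the overexpression line and the wild type for the 8 lowest genes were -3.12 for POPTR_0007s00740, -2.94 for POPTR_0007s00760, -2.29 for POPTR_0001s30970, -1.71 for POPTR_0004s18570, -1.45 for POPTR_0003s09970, and between -1.06 and -1.32 for POPTR_0001s30980, POPTR_0017s00850 and POPTR_0009s10180, all in log2(FPKM + 1). The median over the 34 genes was -0.38, and it was -0.027 without the overexpression H2O2 library, -0.59 without the overexpression ASA library and -0.19 without the wild type ASA library.

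Higher levels in the overexpression line were found for fewer genes. Their wild-type means ran from 1.39 FPKM for POPTR_0001s32000 to 51.7 FPKM for POPTR_0006s00930. POPTR_0001s32000 had 7.02 FPKM with H2O2, 9.01 with ASA and 6.73 in the control in the overexpression line, 0.861 FPKM in the library labelled H2O2, 0.436 in that labelled ASA and 0.667 in the control in the antisense line and 2.24 FPKM with H2O2, 0.934 with ASA and 0.995 in the control in the wild type. It was high in all 3 overexpression libraries, with no overlap with the other 6, and the fitted difference from the wild type was 1.88 in log2(FPKM + 1). POPTR_0006s02390 had 8 FPKM with H2O2, 12.5 with ASA and 4.79 in the control in overexpression cells, against 3.07 FPKM with H2O2, 1.75 with ASA and 1.52 in the control in the wild type, again without overlap. POPTR_0006s02310 had 10.6 FPKM with H2O2, 18.2 with ASA and 4.97 in the control in overexpression cells, against 5.55 FPKM with H2O2, 4.99 with ASA and 3.52 in the control in the wild type, so its control value lay within the wild-type range and both treated values above it.

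POPTR_0008s02530 had 52.1 FPKM with H2O2, 51.9 with ASA and 36.2 in the control in the overexpression line, against 20.6 FPKM with H2O2, 23.8 with ASA and 33.9 in the control in the wild type, and the overexpression values were all the higher ones. POPTR_0006s05450 and POPTR_0016s01780 peaked with ASA in the overexpression line and in the wild type. POPTR_0006s05450 had 7.26 FPKM with H2O2, 55.3 with ASA and 2.41 in the control in overexpression cells, against 1.26 FPKM with H2O2, 31.9 with ASA and 4.20 in the control in the wild type. ASA-treated cells were above their own control by 23.0-fold (95% interval 18.3 to 29.1) in the overexpression line and 7.60-fold (95% interval 6.35 to 9.16) in the wild type. POPTR_0016s01780 had 18.8 FPKM with H2O2, 57.0 with ASA and 11.0 in the control in overexpression cells and 6.03 FPKM with H2O2, 24.1 with ASA and 18.8 in the control in the wild type. POPTR_0002s09860 and POPTR_0006s00930 had fitted overexpression minus wild-type differences of 0.65 and 0.34.

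In the antisense line the control library stood close to the wild-type control for most of the family. The median difference over the 34 genes was -0.13 in log2(FPKM + 1), beside 0.074 over all tested genes. POPTR_0001s30970, POPTR_0001s30980 and POPTR_0007s00740 were the 3 listed as higher there. POPTR_0001s30970 had 67.5 FPKM in the antisense control against 17.6 in the wild-type control, 3.83-fold (95% interval 3.45 to 4.25) higher, and POPTR_0007s00740 had 118 against 53.6 FPKM. POPTR_0004s18570 and POPTR_0007s00760 had 9.92 and 64.4 FPKM in the antisense control, against 3.65 and 30.5 in the wild-type control. So the 5 genes with the deepest drop in treated overexpression cells were all higher in the controls of both transgenic lines than in the wild-type control.

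The library labelled antisense ASA carried most of the antisense listings. POPTR_0006s05450 had 0.6 FPKM in the library labelled antisense ASA, from 19 reads, against 31.9 FPKM in wild-type cells with ASA; the authors' deposited table gave 0 as its scaled value in the antisense library. In the library labelled antisense H2O2 it had 18.8 FPKM, against 1.26 in wild-type cells with H2O2. POPTR_0016s01820 had 5.72 FPKM in the library labelled H2O2, 1.41 in that labelled ASA and 6.12 in the control in the antisense line, against 3.03 FPKM with H2O2, 15.7 with ASA and 12.4 in the control in the wild type. POPTR_0016s01780 had 10.8 FPKM in the library labelled H2O2, 3.13 in that labelled ASA and 11.3 in the control in the antisense line. For both, the library labelled antisense ASA lay closest to the wild type with H2O2. POPTR_0001s05400 was the gene listed as higher, with 13.3 FPKM in the library labelled H2O2, 42.5 in that labelled ASA and 11.6 in the control in the antisense line, against 30.8 FPKM with H2O2, 9.31 with ASA and 14.4 in the control in the wild type.

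The abundant pair POPTR_0001s31120 and POPTR_0001s31040 showed the same arrangement. POPTR_0001s31120 had 356 FPKM in the library labelled H2O2, 101 in that labelled ASA and 286 in the control in the antisense line, 82.9 FPKM with H2O2, 276 with ASA and 286 in the control in the overexpression line and 121 FPKM with H2O2, 329 with ASA and 272 in the control in the wild type. POPTR_0001s31040 had 280.1 FPKM in the library labelled H2O2, 82.6 in that labelled ASA and 253 in the control in the antisense line, 71.8 FPKM with H2O2, 229.7 with ASA and 232 in the control in the overexpression line and 105 FPKM with H2O2, 286 with ASA and 212 in the control in the wild type. In the overexpression line and in the wild type the H2O2 library was the low one, and in the antisense line the library labelled ASA was. Over the 3 treatments, the lowest fitted antisense minus wild-type differences were -0.99 for POPTR_0016s01820, -0.91 for POPTR_0006s02450 and -0.85 for POPTR_0016s01780, followed by POPTR_0006s02390, POPTR_0004s06820, POPTR_0008s02530, POPTR_0010s18980 and POPTR_0006s00930 between -0.69 and -0.55. The highest were 0.80 for POPTR_0001s30980 and 0.76 for POPTR_0001s30970. The median over the 34 was -0.30, and leaving out the library labelled antisense ASA turned it to 0.086. It was -0.58 without the library labelled antisense H2O2, -0.45 without the wild type control and -0.13 without the wild type ASA library. Without both treated antisense libraries it was -0.30, but the antisense line is then its control library alone. The fit adjusts that library by treatment effects estimated in the other 2 lines. POPTR_0007s00760 was fitted lowest at -0.96, although the antisense control itself was 1.05 above the wild-type control in log2(FPKM + 1). POPTR_0006s05450 was fitted highest at 0.59, while its 2 controls differed by -0.055.

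Within each line, treated cells were then set against the control of the same line by a rule of a 2-fold difference in FPKM + 1, the higher of the 2 values being 1 FPKM or more. The libraries are those behind the authors' lists, so the counts describe the chosen genes. In overexpression cells with H2O2, 1 of the 34 genes was higher, beside 5.65% of all genes that met this minimum, and 16 were lower, beside 9.52%. With ASA, 5 were higher in overexpression cells, beside 4.87%, and 6 lower, beside 8.85%. In wild-type cells with H2O2, 2 were higher, beside 3.46%, and 8 lower, beside 3.21%. With ASA, 4 were higher in wild-type cells, beside 2.75%, and 0 lower, beside 1.8%. In the library labelled antisense H2O2, 2 were higher, beside 1.14%, and 0 lower, beside 1.22%, and in that labelled antisense ASA, 1 was higher, beside 3.12%, and 12 lower, beside 4.93%.

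In the wild type, which carries no construct, the 8 genes lower with H2O2 included POPTR_0001s31040, POPTR_0001s31120, POPTR_0001s31140, POPTR_0006s05450, POPTR_0009s10180, POPTR_0016s01780 and POPTR_0016s01820, and the 2 higher ones were POPTR_0001s05400 and POPTR_0001s30970. POPTR_0001s31120 was 2.24-fold (95% interval 2.16 to 2.33) lower, POPTR_0009s10180 2.15-fold (95% interval 2.09 to 2.21) lower and POPTR_0001s31140 4.48-fold (95% interval 3.25 to 6.28) lower with H2O2 than in the wild-type control. POPTR_0001s05400 was 2.15-fold (95% interval 1.92 to 2.41) higher. With ASA the wild-type genes above 2-fold were POPTR_0001s30970, POPTR_0003s09970, POPTR_0006s05450 and POPTR_0010s18980. POPTR_0003s09970 had 103 FPKM with ASA and 26.1 FPKM was measured for POPTR_0010s18980, against 48.8 and 11.6 FPKM in the wild-type control. The median of the 34 genes was -0.34 with H2O2 and 0.30 with ASA in the wild type, beside 0.088 and -0.027 over all tested genes (log2, relative to the wild-type control).

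The mean effect of a treatment over the 3 lines was tested with limma on log2(FPKM + 1) over all 23350 tested genes, with line and treatment as factors. The residual is the scatter of a treatment effect over the lines, with 4 degrees of freedom. Differences between lines within a treatment, which chose the members, are part of this scatter. For H2O2 against ASA, the opposite sign in the antisense line enters it too. Few calls among the members could therefore be foreseen, and a lack of calls does not show that a treatment had no effect. None of the 34 genes passed an adjusted p of 0.05 for H2O2 against control (0 genes; 1 at an unadjusted p under 0.05, beside 6.57% of tested genes), where 0.00428% of tested genes did, nor for ASA against control (0 genes; 0 unadjusted, beside 5.67%), where 0% did. The same held for H2O2 against ASA (0 genes beside 0% of tested genes; 0 unadjusted, beside 0.36%). The voom fit on recovered reads also called 0 of the 34 in each comparison. The gene with the smallest unadjusted p was POPTR_0017s00850, at -1.35 ± 0.49 (SE) in log2(FPKM + 1) for H2O2 against control, adjusted p = 0.709 by limma. It was lower with H2O2 than in the control in 3 of 3 lines, and without the 2 treated antisense libraries the difference was -1.86, adjusted p = 0.273 by limma.

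The other members with the lowest fitted H2O2 differences were POPTR_0007s00740 at -1.82 ± 1.15 (SE), POPTR_0007s00760 at -1.75, POPTR_0014s14300 at -1.56 and POPTR_0001s31140 at -1.49. The highest were POPTR_0006s05450 at 0.69 ± 1.31 (SE), POPTR_0001s05400 at 0.51, POPTR_0006s02310 at 0.46, POPTR_0001s32000 at 0.30 and POPTR_0006s02390 at 0.27. Without the 2 treated antisense libraries POPTR_0006s05450 stood at 0.038, and the highest were POPTR_0006s02310 at 0.75, POPTR_0001s05400 at 0.68 and POPTR_0006s02390 at 0.66. For ASA against control, POPTR_0006s05450 was highest at 1.69 ± 1.31 (SE), followed by POPTR_0006s02310, POPTR_0006s02390, POPTR_0015s08330 and POPTR_0016s01780 between 0.35 and 0.50; without those libraries POPTR_0006s05450 stood at 3.35 and POPTR_0016s01780 at 1.31. The lowest were POPTR_0007s00740 at -1.85, POPTR_0007s00760 at -1.78, POPTR_0001s30980 at -1.19, POPTR_0001s30970 at -1.17 and POPTR_0004s18570 at -0.99. The fitted median over the 34 was -0.37 for H2O2 and -0.095 for ASA, beside -0.015 and -0.046 over all tested genes. The H2O2 median was -0.86 without the library labelled antisense H2O2, -0.18 without the overexpression control and -0.20 without the overexpression H2O2 library. The ASA median was 0.19 without the library labelled antisense ASA, 0.049 without the overexpression control, -0.35 without the overexpression ASA library and -0.22 without the wild type control. Without the overexpression control, the ASA differences of the 5 lowest genes turned to between 0.00046 and 0.26, and the H2O2 differences of POPTR_0007s00740 and POPTR_0007s00760 to 0.038 and 0.090.

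Without both treated antisense libraries, 0 of the 34 genes passed the threshold in any of the 3 comparisons. An unadjusted p under 0.05 was then found for 12 of the 34 for H2O2 against control, beside 13.6% of tested genes, with a fitted median of -0.59, and for ASA against control 4, beside 8.84%, with a median of 0.13. For H2O2 against ASA they were 17 of the 34, beside 14% of tested genes, with a median of -0.78 and a smallest adjusted p among the members of 0.142 by limma. POPTR_0006s05450 then differed between H2O2 and ASA by -3.32 and POPTR_0001s31140 by -2.31 in log2(FPKM + 1). The libraries left here include all those, treated and control, whose differences placed 20 of the 34 genes in the authors' overexpression tables. The counts beside the percentages therefore describe chosen genes and cannot show a treatment effect on the family.

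The 2 treatments were also set directly against each other within a line. The authors had listed 14 of the 34 genes as lower in overexpression cells with H2O2 and 18 in the library labelled antisense ASA. Such listings chose the members, so the medians and counts describe chosen genes and cannot show a treatment effect on the family. In overexpression cells the H2O2 library minus the ASA library had a median over the 34 genes of -0.86 in log2(FPKM + 1), beside 0.086 over all tested genes, with 1 gene at least 2-fold higher, beside 2.77% of the genes that met the minimum, and 15 at least 2-fold lower, beside 4.53%. In the wild type the median was -0.54, beside 0.16, with 1 gene higher, beside 2.68%, and 10 lower, beside 4.99%. In the antisense line, as labelled, it was 0.56, beside -0.13, with 14 higher, beside 5.37%, and 1 lower, beside 2.05%. POPTR_0001s05400 was the gene on the higher side in the overexpression line (1.45) and in the wild type (1.63) and the one on the lower side in the antisense line (-1.61). The sign was opposite in the antisense line and the wild type for 28 of the 34 genes, beside 82.6% of all tested genes, and in the overexpression line and the wild type for 8, beside 26.4%.

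**Figure D4:**
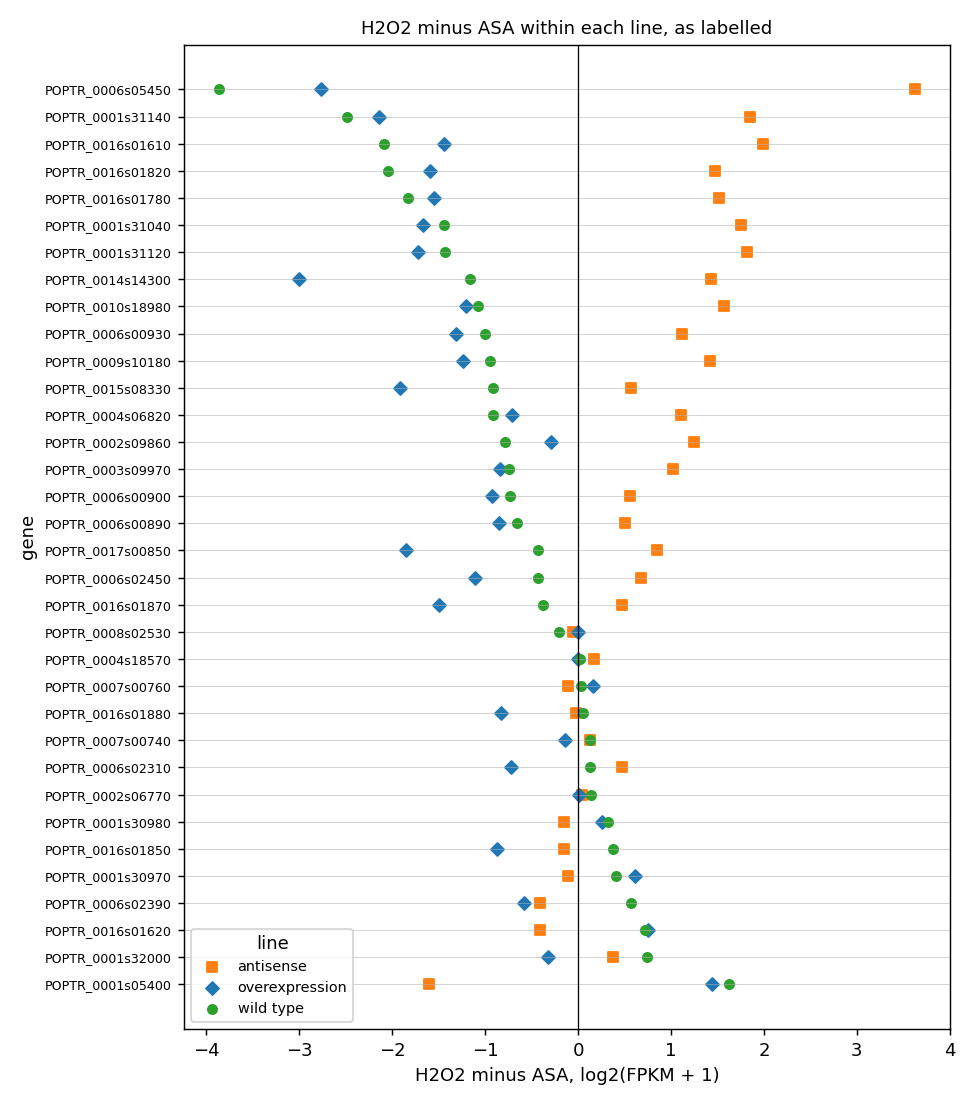
H2O2 minus ASA in log2(FPKM + 1) for each of the 34 UDP-glycosyltransferase genes (rows, ordered by the wild-type value), as labelled, in the antisense line (squares), the overexpression line (diamonds) and the wild type (circles); each point is a difference of 2 single libraries. In the upper rows the overexpression and wild-type points lie left of 0 and the antisense points right of it, and POPTR_0006s05450 spans the widest range, with 3.63 in the antisense line, -2.77 in the overexpression line and -3.86 in the wild type.

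Some members with close identifier numbers kept similar proportions across libraries, and others did not. POPTR_0001s31120 stood at 1.13 to 1.28 times the FPKM of POPTR_0001s31040 in all 9 libraries. POPTR_0016s01820 stood at 0.450 to 0.659 times POPTR_0016s01780, and POPTR_0007s00760 at 0.339 to 0.634 times POPTR_0007s00740, the low end being the overexpression ASA library where both had few reads. By contrast POPTR_0001s30980 and POPTR_0001s31040, also near each other by number, differed in their ratio from 0.353 to 12. POPTR_0006s02450 ranged from 2.01 to 24.9 times POPTR_0006s02390, and POPTR_0016s01870 from 1.32 to 20 times POPTR_0016s01780. Reads shared between near-identical copies cannot be told apart in the deposited values, so levels of such pairs are uncertain to that extent. Gene lengths behind the FPKM values were 814 to 2890 bases over the 34, with a median of 1616.5, against 1440 for all tested genes.

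POPTR_0006s00890 had 78.6 FPKM in the library labelled H2O2, 55.0 in that labelled ASA and 68.5 in the control in the antisense line, 54.5 FPKM with H2O2, 98.7 with ASA and 89.6 in the control in the overexpression line and 69.9 FPKM with H2O2, 110.4 with ASA and 99.2 in the control in the wild type, so the H2O2 library was the lowest in the overexpression line and in the wild type and the highest in the antisense line. POPTR_0006s00930 had the same order, with 41.5 FPKM with H2O2, 104 with ASA and 57.0 in the control in overexpression cells and 31.9 FPKM with H2O2, 65.0 with ASA and 58.2 in the control in the wild type. POPTR_0006s02450 had 13.2 FPKM in the library labelled H2O2, 7.82 in that labelled ASA and 21.4 in the control in the antisense line, against 19.3 FPKM with H2O2, 26.3 with ASA and 32.8 in the control in the wild type, so that each antisense value lay below its wild-type counterpart. POPTR_0004s06820 had 29.6 FPKM with H2O2, 49.0 with ASA and 26.5 in the control in overexpression cells and 32.6 FPKM with H2O2, 62.2 with ASA and 45.5 in the control in the wild type, both highest with ASA.

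POPTR_0010s18980 had 18.6 FPKM in the library labelled H2O2, 5.62 in that labelled ASA and 8.53 in the control in the antisense line, 5.37 FPKM with H2O2, 13.7 with ASA and 11.3 in the control in the overexpression line and 11.9 FPKM with H2O2, 26.1 with ASA and 11.6 in the control in the wild type. POPTR_0002s09860 had its highest value in the untreated overexpression cells, with 52.3 FPKM with H2O2, 64.1 with ASA and 118 in the control in the overexpression line, against 34.1 FPKM with H2O2, 59.3 with ASA and 49.2 in the control in the wild type. The other 5 members, which no part of the naming rule takes, were POPTR_0006s00900, POPTR_0016s01610, POPTR_0016s01620, POPTR_0016s01850 and POPTR_0016s01870. Of these POPTR_0016s01620 was the one with more FPKM with H2O2 than with ASA in both the overexpression line (35.1 and 20.4) and the wild type (41.6 and 24.8), and POPTR_0016s01870 had 26 FPKM in overexpression cells with H2O2 against 120.5 in their control. These 2 were singled out after their values were seen.

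Other genes of the pathway were grouped by words in their deposited descriptions and, like the members, had a description only through the authors' lists. The lists overlap, since sucrose synthases such as POPTR_0002s20340 are in both UDP-sugar supply and other glycosyl transferases. That last list also holds a gene described as a galactokinase, POPTR_0018s03980. The cytochrome P450 list holds an NADPH-cytochrome P450 reductase, POPTR_0018s09980. Among 15 flavonoid and phenylpropanoid enzymes, which make common acceptors, 0 passed the treatment test for H2O2 or ASA. In overexpression cells the authors' deposited tables held 11 as lower with H2O2 and 9 with ASA, beside 1.46% and 1.82% of all genes. They held 1 as higher with each treatment, beside 1.02% and 1.12%. In the control they held 5 as lower, beside 1.33%, and 0 as higher, beside 0.728%. Among 11 genes of UDP-sugar supply, such as sucrose synthase, 0 passed either test, with fitted medians of -0.61 for H2O2 and -0.49 for ASA in log2(FPKM + 1). Among 5 beta-glucosidases, a family whose members can remove such sugars again, 0 passed, with medians of 0.45 and 0.50. Among 22 glutathione S-transferases, which conjugate foreign and oxidised compounds, 0 passed, with medians of -0.68 and -0.73. In overexpression cells the authors' deposited tables held 15 as lower with H2O2, 10 with ASA and 3 in the control, beside those same percentages. As higher they held 0 with H2O2, 2 with ASA and 1 in the control. Of 32 cytochrome P450 genes, 14 were lower and 5 higher with H2O2, and 11 lower and 1 higher with ASA. In the control 5 of them were lower and 1 higher. Of 29 ABC transporters, 11 were lower and 2 higher with each treatment, and 2 lower and 5 higher in the control. Of 28 other glycosyl transferases, 7 were lower and 7 higher with H2O2, and 12 lower and 4 higher with ASA. In the control 7 of them were lower and 1 higher. The beta-glucosidases had 1 lower and 1 higher with H2O2, 1 and 3 with ASA, and 0 and 3 in the control. For UDP-sugar supply these were 3 and 2, 5 and 0, and 5 and 0. Of 8 MATE transporters, 2 were lower and 3 higher with each treatment, and of 6 BAHD acyl transferases 1 and 2. Over all genes the shares were 1.46% lower and 1.02% higher with H2O2, 1.82% and 1.12% with ASA, and 1.33% and 0.728% in the control.

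The remaining lists also held 0 genes past the threshold for either treatment. Their fitted medians for H2O2 and for ASA were -0.22 and -0.17 over 32 cytochrome P450 genes, 0.035 and 0.014 over 6 acyl transferases of the BAHD family, -0.34 and -0.20 over 29 ABC transporters, -0.21 and -0.033 over 8 MATE transporters, some of which carry conjugates into the vacuole, and -0.41 and -0.25 over 28 other glycosyl transferases. Within the overexpression line, against its own control, the H2O2 median was -0.94 over the UDP-glycosyltransferases and -0.12 over all tested genes, and in the wild type these were -0.34 and 0.088. Over the 9 lists the same median ran from -1.95 for the glutathione S-transferases to 0.44 for the beta-glucosidases in the overexpression line, and from -0.996 for UDP-sugar supply to 1.37 for the beta-glucosidases in the wild type.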

How the data were processed

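Transcripts of 9 libraries, 1 per combination of 3 lines and 3 treatments, had been sequenced. Per the submitters' processing notes, the tools included HTSeq 0.6.1, TopHat2 2.0.12 and Bowtie2 2.2.3, while no build is named in the sources used here. The authors deposited FPKM values for 41624 genes and 6 tables of a transgenic line against the wild type. Per the file headers, these tables hold q-values, log2 folds and scaled read values, a signal whose scale is not stated, made by the authors with an unnamed test. Groups were taken from the sample titles. Identifiers of 0 of the 34 genes matched the reference gene table, so no coordinates or sequences were used.

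The members and gene lists were chosen with earlier results of these data known. FPKM steps gave whole reads for 33158 expressed genes (100% of them, relative tolerance 5e-09), and these reads gave depths, the limit of 3 reads for a count of 0 and exact 95% intervals of ratios, all of which cover counting error only. Limma 3.58.1 in R 4.3.3 fitted line and treatment on log2(FPKM + 1) for the 23350 genes that averaged 1 FPKM or more, with trended empirical Bayes moderation and Benjamini-Hochberg adjustment over all tested genes. With no replicates its p-values measure differences against the scatter of a treatment effect over lines, some of which may be real. The log scale with a pseudocount of 1 understates changes of low genes. On simulated data for H2O2 against control over 23350 genes, with 200 changed, the fit recovered 0% of log2 changes of 1, 67.5% of changes of 2 and 95.5% of changes of 4. Comparisons of 2 libraries have no test.

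Members were named if they passed a treatment test, were among the 5 highest or lowest fitted differences for H2O2 or ASA, among the 8 highest or lowest for a transgenic line against the wild type, among the 8 highest mean levels, or listed by the authors at least 4 times. Alternatives were another pseudocount, no filter or a filter of 5 FPKM, quantile normalization, voom on recovered reads, each library left out in turn, and both treated antisense libraries left out.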

Additional observations from a re-analysis of the deposited data

Results flagged for a closer look

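The H2O2 minus ASA difference had opposite signs between lines, with 1 library on each side, so the difference between lines was not tested. Its median over the 34 genes, in log2(FPKM + 1), was 0.56 in the antisense line as labelled, -0.86 in the overexpression line and -0.54 in the wild type. POPTR_0006s05450 differed by 3.63 in the antisense line and by -3.86 in the wild type. POPTR_0001s31140 differed by 1.85 in the antisense line and -2.48 in the wild type, and POPTR_0016s01780 by 1.52 in the antisense line and -1.84 in the wild type. POPTR_0014s14300 differed by 1.43 in the antisense line and -1.17 in the wild type, and POPTR_0001s05400 by -1.61 in the antisense line and 1.63 in the wild type. These 5 are the genes named for a treatment effect that had opposite signs and a size of at least 1 in the antisense line and the wild type; other members, such as POPTR_0001s31120, also did. The values rest on the 2 treated antisense libraries, which had the opposite sign to the wild type for 82.6% of all tested genes. The treated libraries also lie behind the authors' lists, so these values describe chosen genes.

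Treated against control, 2 of the genes named for a treatment effect had opposite signs and a size of at least 1 in log2(FPKM + 1) in both the overexpression line and the wild type, again untested; smaller differences of opposite sign are not given here. POPTR_0001s30970 differed from its own control by -3.57 with H2O2 and -4.17 with ASA in overexpression cells, against 1.46 with H2O2 and 1.05 with ASA in wild-type cells. POPTR_0006s05450 differed with H2O2 by 1.28 in overexpression cells and by -1.20 in wild-type cells.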

How the results depend on the processing

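The count of genes past the threshold for H2O2 against control, 1 with the settings of the report (not one of the 34), was 0 with no filter, with a pseudocount of 0.1, with quantile normalization, with voom on recovered reads and without both treated antisense libraries, and 0 to 1 with each library left out; the cause was not tested. No member passed in any treatment comparison under any of these alternatives. With each library left out, the fitted median over the 34 genes ran from -0.86 to -0.18 for H2O2, from -0.35 to 0.19 for ASA, from -0.59 to -0.027 for overexpression against wild type and from -0.58 to 0.086 for antisense against wild type. Members at least 2-fold changed were counted under 2 alternatives chosen after seeing the data: with a pseudocount of 0.1, 1 gene was lower in the library labelled antisense H2O2 (0 in the report), 2 were higher in overexpression cells with H2O2 (1 in the report; also 2 with quantile normalization) and 5 were higher in wild-type cells with H2O2 (2 in the report).

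Of the genes named for a treatment effect, these changed sign with 1 library left out. For ASA the ranges were -2.30 to 0.26 for POPTR_0001s30970, -1.96 to 0.11 for POPTR_0001s30980, -1.91 to 0.19 for POPTR_0004s18570, -3.05 to 0.00046 for POPTR_0007s00740, -2.96 to 0.060 for POPTR_0007s00760 and -0.38 to 1.36 for POPTR_0016s01780. For H2O2 they were -0.019 to 0.60 for POPTR_0006s02390, -0.80 to 1.87 for POPTR_0006s05450, -3.01 to 0.038 for POPTR_0007s00740 and -2.94 to 0.090 for POPTR_0007s00760. Each of these 10 changed sign without the overexpression control, the only untreated library of that line; POPTR_0016s01780 also did without the overexpression ASA library (-0.37), POPTR_0006s02390 without the wild type H2O2 library (-0.0091) and POPTR_0006s05450 without that labelled antisense H2O2 (-0.80). No paired analysis was possible because no condition has a second library; treatments are compared within lines, since line is a factor in the fit. With 1 library per condition, depth is not what limits most members, but those under 50 reads in a library have wide counting intervals.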

Other observations

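A loss like that of the 5 UDP-glycosyltransferases in treated overexpression cells was also found outside the family, by a rule chosen after the values were seen. Of 17256 genes with at least 5 FPKM in the overexpression control, 143 had at most 1/8 of that level in both treated overexpression libraries, and 110 of these kept at least 1/2 of the wild-type control level in both treated wild-type libraries. The 110 included the 5 UDP-glycosyltransferases, and 56 had a deposited description. Among them were ABC transporters (Novel00224, POPTR_0014s10880, POPTR_0228s00200, POPTR_0003s17730, POPTR_0003s17740) and SPX-domain genes (POPTR_1353s00200, POPTR_0018s13140, POPTR_0176s00240, POPTR_0006s06880). Cytochrome P450 genes (POPTR_0014s06770, POPTR_0011s11850, POPTR_0011s11840) and 3 GDSL lipases (POPTR_1677s00200, POPTR_0017s02500, POPTR_0013s06120) were there too. No family was set against the number of its genes above the 5 FPKM limit. As an example, POPTR_0017s02500 had 1.31 FPKM with H2O2, 1.61 with ASA and 168 in the control of the overexpression line. It had 62.8, 69.6 and 60.1 FPKM under the same conditions in the wild type. The remorin gene POPTR_0015s13170, of a family of plasma membrane proteins, had 0.436 FPKM with H2O2, 0.909 with ASA and 54.2 in the control of the overexpression line, and 2.46, 2.62 and 4.17 FPKM in the wild type. Unlike the 5 members, it was high in the overexpression control alone, with 4.33 FPKM in the antisense control. POPTR_0012s01620, described as an alternative oxidase, had 4.72 FPKM with H2O2, 10.5 with ASA and 434 in the control of the overexpression line.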
